A study of Mus musculus with 8 samples.

Results

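The receptors described here are 10 mouse genes through which macrophages bind and take up particles. They are the Fc receptor genes Fcgr1, Fcgr2b, Fcgr3 and Fcer1g, the scavenger and lectin receptor genes Msr1, Marco, Mrc1 and Scarb1, and the integrin genes Itgb2 and Itgax. Members were chosen by gene symbol, from the transcript accession of each non-control probe. All 10 had a probe among 18539 genes with a probe, with 14 probes in all, and 9 of the 10 passed the filter on dim probes, as did 15182 genes overall. The exception was Mrc1.

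The cells were RAW 264.7, an established macrophage-like line derived from BALB/c mice, and they were either left untreated or exposed for 6 hours to Lactobacillus acidophilus, Bacillus clausii or Bifidobacterium bifidum at a multiplicity of infection of 1 (bacteria added per cell). Each exposure was read on two-colour arrays, L. acidophilus on 2 arrays and B. clausii and B. bifidum on 3 arrays each. According to the design text there were 3 biological replicates of each condition, and any further L. acidophilus replicate was not analysed here. On every array Cy5 carried the treated cells and Cy3 the time-matched untreated cells. Dyes were not swapped, so a dye bias of a probe remains in its ratio against untreated cells.

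Fc receptors bind the constant part of antibodies and trigger the engulfment of antibody-coated particles. Fcgr1 and Fcgr3 encode activating receptors that signal through Fcer1g, the common gamma chain, whose cytoplasmic ITAM motif recruits the kinase Syk. Fcgr2b encodes an inhibitory receptor whose ITIM motif recruits phosphatases. Scavenger receptors bind modified lipoproteins and bacterial surface molecules directly, and beta-2 integrins, which pair the Itgb2 chain with an alpha chain such as that of Itgax, bind complement-coated particles and adhesion ligands.

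The arrays lay on 2 slides. Slide 1 held both L. acidophilus arrays with B. clausii 3 and B. bifidum 3, and slide 2 held B. clausii 1 and 2 with B. bifidum 1 and 2. Slide 1 was scanned with extended range and slide 2 was not. B. clausii 3 stood apart from the other arrays. Its grid was not marked as good, 12514 probes were well above background against 21453 to 26453 elsewhere, and its repeat spots had a coefficient of variation of 72.5% in Cy5 against 15.7% to 21.5%. No member spot was saturated. Of 11 macrophage markers with a probe, 10 were well above background in Cy3 on all 8 arrays, while no marker of the dendritic, B, T or NK, mast, fibroblast or epithelial lists was. The neutrophil list had 1 such gene, S100a8. The design text states biological replicates, but the sample titles only number the arrays and name no culture. The p-values thus reflect array-to-array spread alone, possibly a technical one. Precision is limited by how few arrays there were.

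Of the members, 3 Fc receptor genes differed most between the slides in untreated cells, so the 250 bases before the start sites of the Fc receptor genes are shown, as RefSeq gives them for GRCm38.p6, which is the C57BL/6J reference and not the BALB/c genome of this line. Capitals mark GAGGAA, the core recognised by the macrophage factor PU.1, or TTCNNNGAA, the form of an interferon-gamma activated site, read on either strand.
Fcgr1, chr3:96293970-96294219, minus strand: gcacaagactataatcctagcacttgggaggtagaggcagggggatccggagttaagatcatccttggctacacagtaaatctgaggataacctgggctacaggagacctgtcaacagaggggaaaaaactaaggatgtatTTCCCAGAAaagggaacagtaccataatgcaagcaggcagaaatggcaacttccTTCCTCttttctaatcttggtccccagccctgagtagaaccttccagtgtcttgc
Fcgr2b, chr1:170976072-170976321, minus strand: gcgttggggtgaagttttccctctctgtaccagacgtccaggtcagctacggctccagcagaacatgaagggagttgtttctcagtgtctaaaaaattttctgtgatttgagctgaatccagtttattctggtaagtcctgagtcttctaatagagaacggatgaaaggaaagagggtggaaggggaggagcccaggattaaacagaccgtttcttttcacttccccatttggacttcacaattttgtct
Fcgr3, chr1:171059395-171059644, minus strand: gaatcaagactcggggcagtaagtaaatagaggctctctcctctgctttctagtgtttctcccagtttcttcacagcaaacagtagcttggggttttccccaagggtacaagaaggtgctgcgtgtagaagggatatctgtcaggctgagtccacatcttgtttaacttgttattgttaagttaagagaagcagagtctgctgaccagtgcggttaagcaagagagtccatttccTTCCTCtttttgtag
Fcer1g, chr1:171234350-171234599, minus strand: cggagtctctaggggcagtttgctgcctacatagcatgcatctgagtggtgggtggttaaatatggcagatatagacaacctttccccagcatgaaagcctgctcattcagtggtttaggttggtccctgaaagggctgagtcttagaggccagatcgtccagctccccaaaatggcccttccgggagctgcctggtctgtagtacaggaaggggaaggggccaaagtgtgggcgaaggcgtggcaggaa

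The Fcgr1 window held GAGGAA on its reverse strand, at 55 to 50 bases before the start, and TTCNNNGAA at 109 to 101 bases. The Fcgr3 window held GAGGAA at 15 to 10 bases before the start. RefSeq lists a second Fcgr3 start whose window, chr1:171059404-171059653, held the same 6 letters at 6 to 1 bases. Neither motif was found in the windows of Fcgr2b and Fcer1g. Windows were available for 7 of the 10 members. Those of Marco and Mrc1 held GAGGAA as well, in 1 and 3 places, and that of Itgax held none. Of 32851 RefSeq windows of this length, 23.3% held GAGGAA and 7.0% TTCNNNGAA. These matches describe letters and not binding sites.

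In untreated cells, 3 Fc receptor genes differed strongly between the slides and did so in opposite directions. Fcgr1, the high-affinity IgG receptor, was brighter on slide 2, and Fcgr2b and Fcgr3 were dimmer there. The levels given are normalized log2 Cy3 intensities, and levels of different probes are not compared.

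Fcgr1 read 9.39 and 9.36 on the L. acidophilus arrays, 8.36 on B. clausii 3 and 9.49 on B. bifidum 3, all on slide 1. On slide 2 it read 11.99 and 12.10 on the B. clausii arrays and 12.06 and 12.30 on the B. bifidum arrays. The slides did not overlap, and the difference was 2.96 ± 0.25 (SE, n = 4 and 4), or 7.79-fold, with a limma adjusted p of 0.00011. On B. clausii 3 the Cy3 signal was not well above background, and without that array the difference was 6.48-fold.

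Fcgr2b, the inhibitory receptor, read 12.15, 12.24, 12.21 and 12.22 on slide 1 and 9.50, 9.50, 9.55 and 9.61 on slide 2. Fcgr3, the low-affinity activating receptor, read 10.78, 10.76, 11.08 and 10.75 on slide 1 and 7.79, 7.84, 7.87 and 8.25 on slide 2. Neither gene's slides overlapped. Slide 2 was lower by 6.35-fold for Fcgr2b (log2 -2.67 ± 0.09, limma adjusted p 1.2e-06) and by 7.49-fold for Fcgr3 (log2 -2.90 ± 0.14, limma adjusted p 6.4e-06). The other probes of Fcgr2b gave log2 differences of -2.53 and -2.44. Fcgr2b and Fcgr3 are close paralogs, and hybridisation of each other's transcripts was not tested, since probe sequences were not used here.

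Itgax, the alpha chain known as CD11c, was also lower on slide 2, at 6.72 to 6.79 against 7.48 to 8.31 on slide 1. The difference was -0.95 ± 0.20 (limma adjusted p 0.0088), or 1.93-fold, and 1.67-fold without B. clausii 3, where its Cy3 signal was not well above background. The other members did not pass, with Fcer1g at -0.43 ± 0.17 (limma adjusted p 0.10), Msr1 at -0.34 ± 0.27, Marco at -0.34 ± 0.24, Scarb1 at 0.31 ± 0.28 and Itgb2 at -0.01 ± 0.18. Thus 4 of 9 members passed, 3 lower and 1 higher, where 26.7% of all genes tested passed, 11.1% lower and 15.6% higher. Without B. clausii 3 the count was 7 of 9, where 52% of all genes passed, with Fcer1g at -0.26 (adjusted p 0.0079), Msr1 at -0.64 (adjusted p 0.00040) and Itgb2 at 0.18 (adjusted p 0.040) joining. In Fcer1g the slides did not overlap, at 14.93 to 15.65 against 14.64 to 14.74, and the two-sided exact permutation test gave p = 0.0286, the smallest that 4 arrays against 4 allow.

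Slide, scan settings and the untreated culture cannot be told apart. The summed marker levels of some other cells differed between the slides too, in both directions. The summed Cy3 level of the 6 measured neutrophil markers was 13.97 to 16.18 on slide 1 and 9.33 to 9.48 on slide 2. That of the 11 macrophage markers was 17.37 to 17.66 and 16.68 to 16.75. The dendritic cell sum was higher on slide 2, at 9.17 to 9.59 against 8.33 to 8.64. The mast cell sum was slightly higher there, at 9.032 to 9.267 against 8.855 to 9.002. Both sums come from dim markers, each well above background in Cy3 on at most 6 of the 8 arrays. The B cell, T or NK cell and fibroblast or epithelial cell sums overlapped between the slides. Of the 6 neutrophil markers taken singly, 3 passed, all lower on slide 2. The part of these markers in the receptor differences was not tested.

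**Figure D1:**
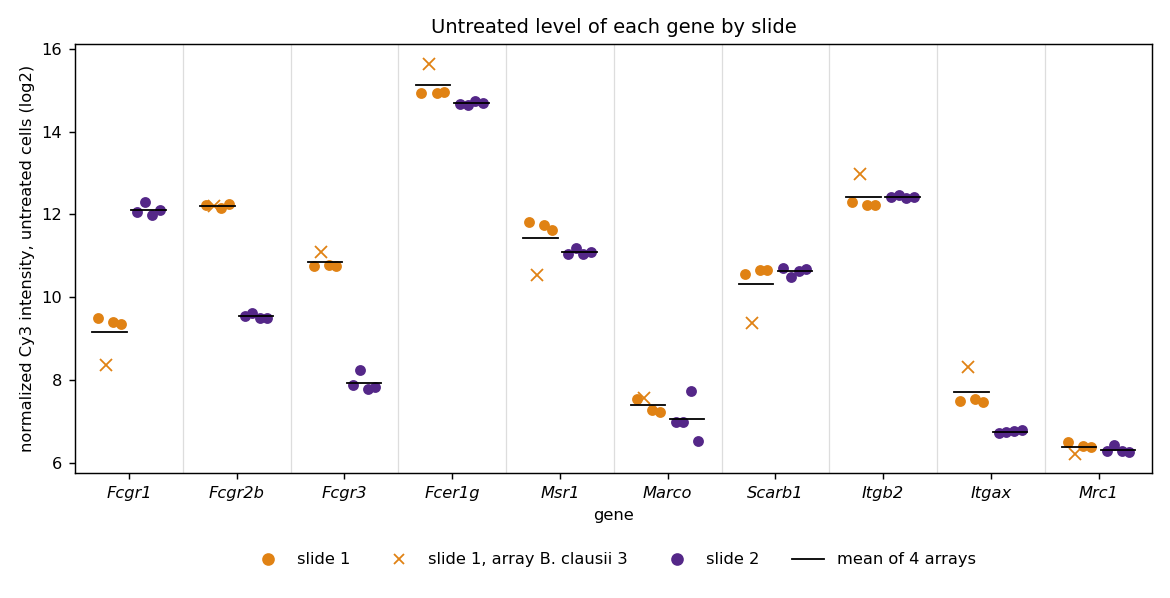
Normalized log2 Cy3 intensity of untreated cells for the brightest probe of each gene, by slide, with a point per array, a cross for B. clausii 3 and a line at the mean of 4 arrays. Fcgr1 is higher on slide 2, and Fcgr2b, Fcgr3 and Itgax are lower there, with no overlap between slides in these 4 genes.

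Mrc1, the mannose receptor, was not well above background in either channel on any array. Its Cy3 level was 6.37 ± 0.12 on slide 1 and 6.31 ± 0.08 on slide 2 (SD, n = 4 each). It was not tested.

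No member passed in a fit of strain means across all 8 arrays. The counts were 0 of 9 for L. acidophilus (0% of all genes), B. clausii (4.77%) and B. bifidum (1.73%), and 0 of 9 between B. clausii and B. bifidum (0.0263%). At an unadjusted p under 0.05, limma gave 0, 5, 2 and 2 members and 1097, 4661, 2875 and 1799 genes. With B. clausii the members nearest to the threshold were Itgb2 at -0.47 ± 0.13 (limma adjusted p 0.065), Fcgr2b at -0.45 ± 0.13 (limma adjusted p 0.066), Fcgr3 at -0.36 ± 0.12 (limma adjusted p 0.088) and Fcer1g at -0.36 ± 0.12 (limma adjusted p 0.090). The median of the members was -0.36 with B. clausii, against -0.01 over all genes, and 0.00 with both L. acidophilus and B. bifidum.

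These means join arrays that differed by slide. Without B. clausii 3, 7 members fell with B. clausii, where 36.1% of all genes passed, and 5 were lower than with B. bifidum, where 14% did. Without B. bifidum 3, 1 of 9 members passed with B. clausii, near the 11.5% of all genes. With an additive slide term, 5 of 9 members passed with B. clausii, beside 25.3% of all genes. All 5 were lower, namely Itgb2 at -0.42, Fcgr2b at -0.37, Fcgr3 and Fcgr1 at -0.30 and Fcer1g at -0.30, with limma adjusted p from 0.0030 to 0.036. With that term Fcgr2b at -0.24 and Scarb1 at -0.23 passed with B. bifidum, beside 14% of all genes. For L. acidophilus, Fcgr2b passed at -0.37, beside 2.77%, but that strain was on slide 1 only. Its value takes the slide part from the other strains, and its measured ratios were -0.10 and -0.15. Slide 1 held a single array of B. clausii and of B. bifidum, so the results that follow rest on slide 2, with a mean for each strain on each slide and a spread estimated from 3 pairs of arrays.

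On slide 2, all 4 Fc receptor genes and both integrin genes fell with B. clausii, and so did Msr1, whereas Marco and Scarb1 rose. All 9 measured members passed, 7 lower and 2 higher, where 56.1% of all genes passed, 30.8% lower and 25.3% higher. With B. bifidum on the same slide 4 of 9 passed, 2 in each direction, against 40.4% of all genes, 24.8% lower and 15.6% higher. Fcgr1 and Fcgr2b fell, and Itgb2 and Msr1 rose. The median member ratio was -0.56 with B. clausii and 0.01 with B. bifidum, beside medians of -0.01 over all genes in both. Fewer cells of a kind and less RNA per cell cannot be told apart in such bulk samples.

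**Figure D2:**
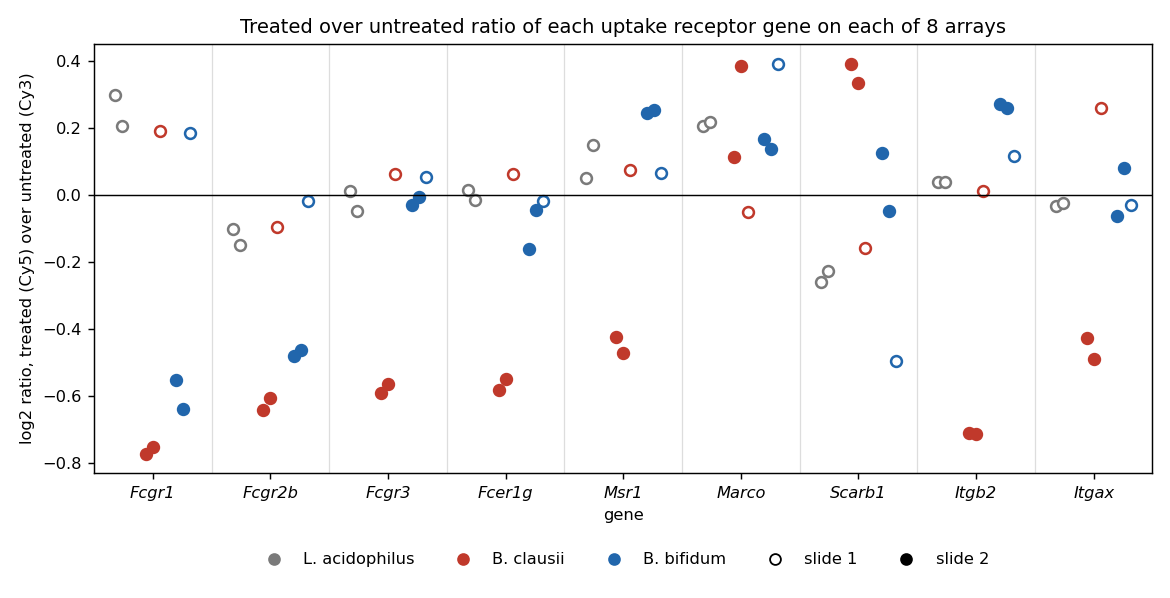
Log2 ratio of treated (Cy5) over untreated (Cy3) cells for the brightest probe of each measured gene, with a point per array, colours for the strains, open points for slide 1 and filled points for slide 2. On slide 2 the Fc receptor genes lie below 0 with B. clausii, at -0.77 to -0.55, while their slide 1 points lie at -0.15 to 0.30.

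Fcgr1 had log2 ratios of -0.77 and -0.75 on the slide 2 arrays of B. clausii and -0.55 and -0.64 on those of B. bifidum. On slide 1 it read 0.30 and 0.21 with L. acidophilus, 0.19 with B. clausii and 0.19 with B. bifidum. Every slide 2 array was therefore below 0 and every slide 1 array above it. On the slide 1 array of B. clausii the Cy3 signal of Fcgr1 was not well above background. The slide 2 means were -0.76 ± 0.05 with B. clausii and -0.60 ± 0.05 with B. bifidum (SE, n = 2 each), with limma adjusted p of 5.6e-05 and 0.00025. These correspond to 1.70-fold and 1.51-fold lower. The difference between the strains, -0.17 (95% confidence interval -0.33 to -0.01), did not pass (limma adjusted p 0.11).

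Fcgr2b had ratios of -0.64 and -0.61 with B. clausii and -0.48 and -0.46 with B. bifidum on slide 2. On slide 1 it read -0.10 and -0.15 with L. acidophilus, -0.09 with B. clausii and -0.02 with B. bifidum. The slide 2 means were -0.62 ± 0.04 and -0.47 ± 0.04, and both passed. On this brightest probe all 8 arrays were below 0, and the slide 1 arrays lay nearer to 0. The gene's dimmer probes read -0.10 to 0.04 and 0.07 to 0.20 on slide 1. The strains differed by -0.15 (95% confidence interval -0.29 to -0.01), which did not pass (limma adjusted p 0.093). The gene's brightest probe was spotted 10 times on each array, and its ratio had an SD of 0.06 to 0.13 between spots of an array. The dimmer probes gave smaller falls on slide 2, of -0.28 and -0.30 with B. clausii and of -0.18 and -0.06 with B. bifidum. The last did not pass (limma adjusted p 0.32). Between the strains the dimmer probes differed by -0.10 and -0.24, and only the latter passed (limma adjusted p 0.39 and 0.036).

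Fcgr3 separated the strains. It read -0.59 and -0.56 with B. clausii on slide 2 and -0.03 and -0.01 with B. bifidum, and -0.05 to 0.06 on the 4 arrays of slide 1. Only the slide 2 arrays of B. clausii stood below the rest. The B. clausii mean was -0.58 ± 0.04, and B. bifidum, at -0.02 ± 0.04, did not pass. The strains differed by -0.56 ± 0.06 (limma adjusted p 0.00097). Its signalling partner Fcer1g had the same order, with -0.58 and -0.55 for B. clausii, -0.16 and -0.04 for B. bifidum and -0.02 to 0.06 on slide 1. The B. clausii mean of Fcer1g was -0.56 ± 0.05, the B. bifidum mean of -0.10 ± 0.05 did not pass (limma adjusted p 0.13), and the strain difference was -0.46 ± 0.06 (limma adjusted p 0.0029).

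Itgb2, the common beta-2 chain, had the largest strain difference among the members. It read -0.71 and -0.71 with B. clausii on slide 2 against 0.27 and 0.26 with B. bifidum, and 0.01 to 0.12 on slide 1. The means were -0.71 ± 0.04 and 0.27 ± 0.04, which differed by -0.98 ± 0.05 (limma adjusted p 0.00021), or 1.97-fold. Itgax read -0.43 and -0.49 with B. clausii, -0.06 and 0.08 with B. bifidum and -0.03 to 0.26 on slide 1. Its Cy3 signal was not well above background on the slide 1 array of B. clausii, which gave the 0.26. Its Cy5 signal was not well above background on either slide 2 array of B. clausii. The fall was thus at least 1.21-fold, beside a measured mean of -0.46 ± 0.05, where the dim channel was set to the lowest signal well above background on its array.

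Msr1, the class A scavenger receptor of modified lipoproteins, followed Itgb2 on slide 2. Its ratios were -0.42 and -0.47 with B. clausii, 0.25 and 0.26 with B. bifidum and 0.05 to 0.15 on slide 1. The means were -0.45 ± 0.04 and 0.25 ± 0.04, and the difference -0.70 ± 0.06 (limma adjusted p 0.00064). Its 3 probes all fell with B. clausii, at -0.41 to -0.55. With B. bifidum they gave 0.33, 0.25 and -0.02, and the last did not pass (limma adjusted p 0.79).

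Scarb1, the receptor of high-density lipoprotein, ran the other way. It read 0.39 and 0.33 with B. clausii and 0.12 and -0.05 with B. bifidum on slide 2. On slide 1 every array was below 0, at -0.26 and -0.23 with L. acidophilus, -0.16 with B. clausii and -0.49 with B. bifidum. The B. clausii mean was 0.36 ± 0.05, that of B. bifidum was 0.04 ± 0.05 and did not pass, and the strain difference was 0.33 ± 0.08 (limma adjusted p 0.020). Marco, a class A receptor that binds bacteria, read 0.11 and 0.39 with B. clausii, 0.17 and 0.14 with B. bifidum, 0.21 and 0.22 with L. acidophilus, and -0.05 and 0.39 on the remaining slide 1 arrays of B. clausii and B. bifidum. Its B. clausii mean, 0.25 ± 0.07, passed (limma adjusted p 0.020), although its Cy5 signal was not well above background on B. clausii 2. The B. bifidum mean of Marco, 0.15 ± 0.07, did not pass (limma adjusted p 0.12).

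**Figure D3:**
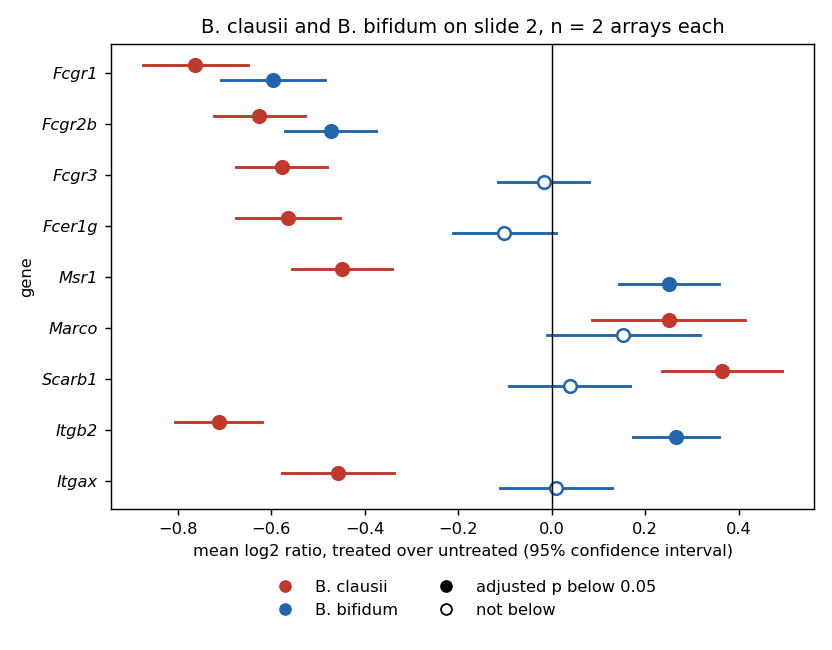
Mean log2 ratio of treated over untreated cells on slide 2 with its 95% confidence interval, for B. clausii and B. bifidum (2 arrays each); filled points have an adjusted p below 0.05. Fcgr1 and Fcgr2b are below 0 with both strains, whereas Itgb2 and Msr1 lie on opposite sides of 0.

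Between the strains on slide 2, 6 of 9 members passed where 31.4% of all genes did, 15.6% lower and 15.8% higher, with Itgb2, Msr1, Fcgr3, Itgax and Fcer1g lower with B. clausii and Scarb1 higher. Comparing slides within a strain, 8 of 9 members differed with B. clausii, 7 lower and 1 higher on slide 2, beside 38.7% of all genes, 22.6% lower and 16% higher. Marco did not pass. With B. bifidum 3 of 9 differed, Fcgr1 and Fcgr2b lower and Scarb1 higher, beside 29.7% of all genes, 17.3% lower and 12.4% higher. In both strains Fcgr1 was lower on slide 2, with differences of -0.95 ± 0.08 and -0.78 ± 0.08, and Scarb1 was higher, with 0.52 ± 0.09 and 0.53 ± 0.09. These comparisons set 2 arrays against 1, and a lone array has no spread of its own. Each SE therefore comes from the 3 pairs of arrays. For B. clausii the lone array was B. clausii 3, whose grid was not marked as good and whose repeat spots varied by 72.5% in Cy5. On it the Cy3 signal of Fcgr1, Itgax and Marco was not well above background. For Itgax neither was the Cy5 signal on the slide 2 arrays of B. clausii.

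Normalization decided some of these directions. When each array was centred on its median without the brightness-dependent loess step, the median of all genes on slide 2 shifted to -0.30 with B. clausii and -0.42 with B. bifidum. Calls over all genes then were 138 higher and 5106 lower with B. clausii, against 3845 and 4673, and 25 higher and 6509 lower with B. bifidum, against 2372 and 3760. Fcgr1, Fcgr2b, Fcgr3, Fcer1g, Msr1 and Itgb2 fell with B. clausii under this and the 3 other scalings run, and Fcgr1 and Fcgr2b did so with B. bifidum. Since almost all calls under median centring were lower, a fall under it cannot tell a change of the gene from the shift of all genes. The rises did not hold under median centring. With B. bifidum, Itgb2 turned to -0.66 and Msr1 to -0.60, or -0.24 and -0.18 relative to the median gene. With B. clausii, Scarb1 turned to -0.32, or -0.01 relative to the median gene, and Marco at 0.14 and Itgax at -0.28 no longer passed. Marco with B. clausii and the strain difference of Scarb1 also missed the threshold with the scanner's own processed signals and with the authors' deposited value table. No member passed between the strains under median centring, where 4 genes did in all.

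Fcgr1 was the only member whose ratio spanned more than 1 log2 unit over the 8 arrays. The genes of most similar pattern, among 14821 ranked, were Zfp52 (Pearson r = 0.999) and Rfc3 (r = 0.997), over 8 arrays that fall into 2 groups by slide. Zfp52, which encodes a zinc finger protein, read -0.82 and -0.83 with B. clausii and -0.62 and -0.66 with B. bifidum on slide 2, and 0.00 to 0.07 on slide 1. Rfc3, a subunit of the clamp loader of DNA replication, read -0.85 to -0.60 on slide 2 and 0.05 to 0.18 on slide 1.

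Beyond the members, 6 lists of related genes were read from the same fit. With B. clausii on slide 2, fallen genes outnumbered risen ones in each list, as they did over all genes, where 30.8% fell and 25.3% rose. Of 5 other Fc receptor genes 3 fell and 0 rose, and of 13 other scavenger receptor genes 8 fell and 2 rose. Of 13 other integrin genes 6 fell and 3 rose, and of 24 genes of ITAM and ITIM signalling 15 fell and 2 rose. Of 27 genes of integrin activation and the actin of the phagocytic cup 15 fell and 8 rose, and of 14 receptors for apoptotic cells and complement 8 fell and 2 rose. With B. bifidum the same lists gave 0, 2, 1, 4, 6 and 4 falls and 0, 3, 3, 9, 10 and 3 rises, where 24.8% of all genes fell and 15.6% rose. Under median centring no gene of these lists rose with either strain. The macrophage markers moved as well, with 9 of 11 falling and 0 rising with B. clausii, at a median of -0.79, and 5 falling and 2 rising with B. bifidum. Their part in the receptor results was not tested.

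The lists' leading genes included receptors and adaptors that work beside the members. Unless stated otherwise, the values of these genes are slide 2 means under loess. Slide 1 often read otherwise. On B. clausii 3 and B. bifidum 3, Tyrobp read 0.01 and 0.18 and Apbb1ip 0.05 and 0.22, while Lcp2 read -0.31 and -0.14. Fcgr4, an activating receptor that also uses the common gamma chain, fell by 1.09 ± 0.06 on the log2 scale with B. clausii, and Fcrl1, an Fc receptor-like gene, fell by 0.85 ± 0.05. With B. bifidum neither passed, at -0.14 ± 0.06 and -0.08 ± 0.05. Tyrobp, the ITAM adaptor DAP12, fell by 1.20 ± 0.05 with B. clausii and fell by 0.66 ± 0.05 with B. bifidum. Sirpa, the inhibitory receptor of the CD47 signal, fell by 1.13 ± 0.04 with B. clausii and did not pass with B. bifidum (0.06 ± 0.04). Its ligand Cd47 fell by 0.85 ± 0.04 with B. clausii and fell by 0.58 ± 0.04 with B. bifidum. Lcp2, the adaptor SLP-76, fell by 0.56 ± 0.05 with each strain.

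Apbb1ip, which links Rap1 to integrin activation, fell by 1.03 ± 0.04 with B. clausii and fell by 0.94 ± 0.04 with B. bifidum. Nckap1l, a subunit of the WAVE complex that drives actin branching, fell by 0.98 ± 0.04 with B. clausii and fell by 0.50 ± 0.04 with B. bifidum. Among the integrins, Itga4 fell by 0.85 ± 0.05 with B. clausii and fell by 1.42 ± 0.05 with B. bifidum. Its untreated Cy3 level was 7.70 to 7.84 on slide 1 and 11.25 to 11.42 on slide 2. Its slide 1 ratios were -0.02 with B. clausii and -0.37 with B. bifidum. Itga5, the alpha chain of the fibronectin receptor, rose by 0.92 ± 0.04 and 0.45 ± 0.04, and the B. bifidum value turned to -0.11 under median centring. Both integrin alpha chains thus changed in the same direction with the 2 strains under loess.

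The low-density lipoprotein receptor relative Lrp1, which also clears apoptotic cells, fell by 0.75 ± 0.05 with B. clausii and rose by 0.48 ± 0.05 with B. bifidum, where median centring gave -0.45. Colec12, a scavenger receptor with a collagen-like stalk, fell by 0.85 ± 0.05 with B. clausii and fell by 0.64 ± 0.05 with B. bifidum. Cd300lf, an inhibitory lipid receptor, fell by 1.02 ± 0.05 with B. clausii and rose by 0.26 ± 0.05 with B. bifidum, where median centring gave -0.53. For Lrp1 and Cd300lf the median-centred values stand beside a median of -0.42 over all genes. The complement regulator Cr1l fell by 0.57 ± 0.07 with B. clausii and fell by 0.47 ± 0.07 with B. bifidum. Over all 8 arrays 7 of the 96 measured genes of the lists (7.29%) passed with B. clausii, near the 4.77% of all genes, and none with the other strains. They were Fcgr4, Fcrl1, Hcst, Lcp2, Myo1f and Wipf1 lower and Itgav higher. Of these, Hcst, Myo1f, Wipf1 and Itgav lay outside the rule for named genes and are named after their values were seen.

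**Figure D4:**
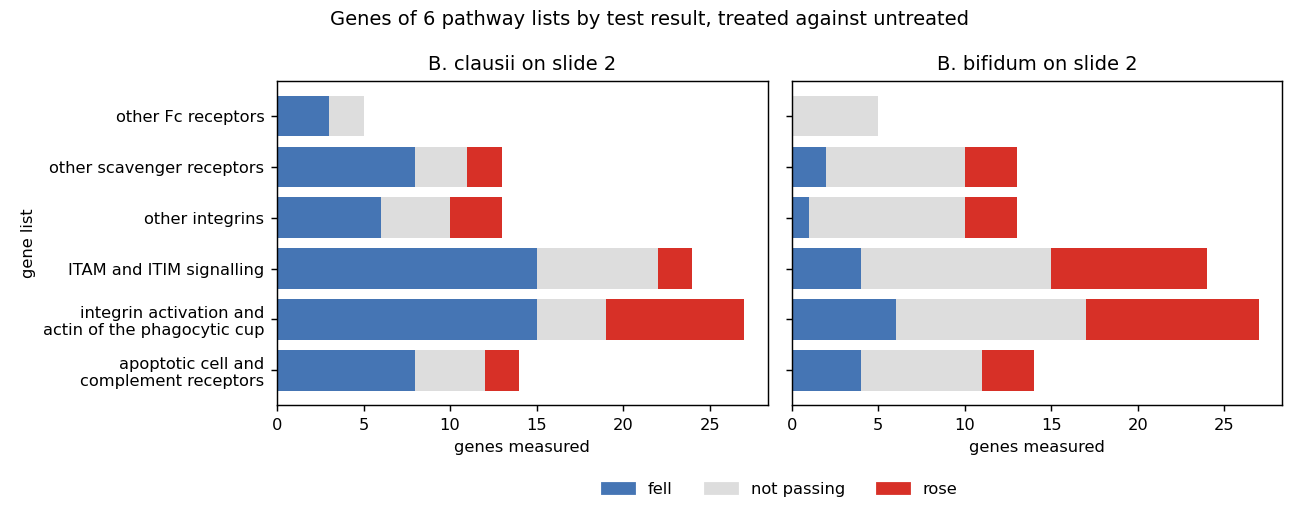
Number of measured genes of each of 6 lists that fell, rose or did not pass on slide 2, for B. clausii and B. bifidum. In the ITAM and ITIM signalling list 15 of 24 genes fell with B. clausii and 4 with B. bifidum.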

How the data were processed

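The deposited scanner files hold linear spot and background intensity from Agilent Feature Extraction 10.7.3.1, per the file headers; per the submitters' processing notes the version was 10.5.1.1. The authors' deposited value table equalled the scanner's log10 ratio of Cy5 over Cy3 within 0.005 and was used as an alternative. Slides were taken from the file headers. Median signals were used, since the planned mean signal and gene name columns were not among those used here. Probes were named through RefSeq transcript accessions (GRCm38.p6 table, names only), with 29169 features named and 14210 not.

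In limma 3.58.1 (R 4.3.3), the background was corrected with normexp (offset 50), log2 ratios were normalized by loess with controls at weight 0, and outlier spots were dropped. Repeat spots were averaged. The filter asked for a signal well above background in either channel on 2 or more arrays, and each gene was represented by its brightest probe. Ratios were fitted over all 8 arrays with lmFit and eBayes, by strain or by strain and slide. Benjamini-Hochberg adjustment over all genes used a threshold of 0.05. Cy3 levels came from Aquantile normalization after loess. The fit by strain and slide, for B. clausii on slide 2, and the fit of Cy3 levels between slides were tested on simulated log2 values with known changes. The steps before the fits were not tested in this way.

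Members and lists were chosen with earlier results of these data known. Named genes were the members, the 2 passing genes of smallest p per list and strain on slide 2, all list genes passing over all arrays if 5 or fewer did, and the 2 genes most correlated with any member spanning over 1 log2 unit.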

Additional observations from a re-analysis of the deposited data

Results flagged for a closer look

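In 7 of 18 groups of 4 arrays checked, a single array lay far from the other 3 by Dixon's criterion, and chance flags about 1 in 20 groups. All 7 were the untreated Cy3 level (normalized log2 intensity) of B. clausii 3 on slide 1. It was above the others for Fcer1g, at 15.65 against 14.93 to 14.96, for Fcgr3, at 11.08 against 10.75 to 10.78, for Itgax, at 8.31 against 7.48 to 7.53, and for Itgb2, at 12.99 against 12.22 to 12.30. It was below them for Fcgr1, at 8.36 against 9.36 to 9.49, for Msr1, at 10.53 against 11.61 to 11.82, and for Scarb1, at 9.39 against 10.56 to 10.67. The treated over untreated ratios were not put to this check, since a slide mixes strains. For Itgax the log2 ratio of this array was 0.26, against -0.03, -0.03 and -0.02 on the other slide 1 arrays. Its Cy3 signal on this array was not well above background.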

How the results depend on the processing

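Each alternative was compared with the counts of members that passed. Median centring in place of loess gave 6 members with B. clausii and 6 with B. bifidum on slide 2, all lower, where 34.5% and 43% of all genes passed, 0 between them, and 0 for the slide difference within either strain. In single genes, Itgb2 (-0.66), Msr1 (-0.60) and Scarb1 (-0.74) reversed with B. bifidum on slide 2, and Scarb1 reversed with B. clausii on slide 2 (-0.32) and between its slides (-0.033). The slide as a block gave 1 member with L. acidophilus, 5 with B. clausii and 2 with B. bifidum (2.77%, 25.3% and 14% of all genes). The L. acidophilus count rests on a slide term estimated from the other strains, since that strain was on slide 1 only. The replicate number as a block gave 2, 6 and 2 members, and 0 between B. clausii and B. bifidum (3.31%, 28.5%, 14.9% and 0.0198% of all genes). Whether the numbers pair the samples could not be settled. Deviations of same-numbered L. acidophilus arrays correlated at -0.09 to -0.06 with the other strains, but the deviations of only 2 arrays mirror each other. On slide 2, same-numbered arrays of B. clausii and B. bifidum correlated at 0.41 and 0.30. Differently numbered ones there correlated at 0.26 and 0.37. Replicate 3 of both strains lay on slide 1. The strict filter asked for both channels well above background on all 8 arrays. It removed Fcgr1, Marco and Itgax before testing, and 2 of the members kept passed in the untreated comparison (25% of the genes kept). Leaving out each array in turn gave 0 to 7 members with B. clausii, 0 to 5 between B. clausii and B. bifidum and 4 to 7 in the untreated comparison, each highest without B. clausii 3 (36.1%, 14% and 52% of all genes), where Itgb2 in untreated cells turned to 0.18 (lowest -0.080 over these settings). It gave 0 to 0 with L. acidophilus and B. bifidum over all arrays. On slide 2 it gave 8 to 9 with B. clausii, 4 to 5 with B. bifidum and 5 to 6 between them, and for the slide differences 8 to 9 and 3 to 3. The causes of these shifts were not tested.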
